A study of Mus musculus with 16 samples.

Results

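De novo lipogenesis builds fatty acids from acetyl-CoA, and glyceride synthesis joins them to glycerol as triglyceride. The genes described here are 33 enzymes and regulators of these routes, taken by gene symbol. No measured value is part of that rule, but the list was drawn up with earlier results of these data known. Of the 33, 30 had a named probe, out of 16593 genes with a named probe in the series: 12 of fatty acid synthesis, 8 of elongation or desaturation and 10 of glyceride synthesis. Acacb, G6pdx and Pgd had no named probe and were not analysed here. All 30 were measured in fat, and 28 in liver, where the probes of Scd2 and Lpin3 were detected on none of the 8 arrays.

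RNA came from white fat of the epididymis (eWAT, epididymal white adipose tissue) and from liver of wild-type mice and of mice labelled FGF1-/-, called Fgf1 null below, which lack the secreted growth factor FGF1. The mice were 24 weeks old and had spent 16 weeks on normal chow or on a diet high in fat (HFD), which gives 8 groups: wild-type chow, wild-type HFD, Fgf1 null chow and Fgf1 null HFD in each tissue. Each group was read on 2 Illumina bead arrays, described in the labels as technical replicates, and so is 1 RNA sample. The labels do not say whether a sample was 1 mouse or a pool, and give neither strain nor sex. All differences below are between RNA samples, measured beyond array error, and carry no information on the spread between mice.

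Lipogenesis runs from citrate, which leaves the mitochondrion and is cleaved to acetyl-CoA, through malonyl-CoA to palmitate, which is then elongated and desaturated. The transcription factors SREBP-1 (gene Srebf1), driven by insulin, and ChREBP (gene Mlxipl), driven by carbohydrate, switch on most of the enzymes. Triglyceride is assembled by successive acylation of glycerol phosphate, with removal of the phosphate by lipins and a last acylation by a DGAT enzyme. Liver makes fatty acids from carbohydrate for export, whereas fat cells store triglyceride and also carry the whole route.

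Promoters of 4 members with large diet differences in fat are shown, since motifs of the lipogenic factors can be looked for in them. They are from the RefSeq promoter table of build GRCm38.p6, each the 250 bases before an annotated start. They read 5′ to 3′ on the gene's strand, with capitals at matches to CCAAT, the motif bound by NF-Y, and to CACGTG, the palindromic E-box, on either strand. The positions are chr7:97417551-97417800, minus strand, for Thrsp; chr2:155517793-155518042, plus strand, for Acss2; chr16:17928220-17928469, minus strand, for Slc25a1; and chr11:120824548-120824797, minus strand, for Fasn.
Thrsp: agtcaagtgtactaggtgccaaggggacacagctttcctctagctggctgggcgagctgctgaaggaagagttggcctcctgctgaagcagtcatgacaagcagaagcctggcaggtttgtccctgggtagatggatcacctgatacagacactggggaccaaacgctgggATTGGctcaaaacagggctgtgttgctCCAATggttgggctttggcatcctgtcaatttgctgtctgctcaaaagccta
Acss2: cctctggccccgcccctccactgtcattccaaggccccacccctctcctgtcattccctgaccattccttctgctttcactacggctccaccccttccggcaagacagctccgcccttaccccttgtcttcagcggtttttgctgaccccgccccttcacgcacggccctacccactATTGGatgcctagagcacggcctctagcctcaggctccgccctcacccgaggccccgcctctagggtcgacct
Slc25a1: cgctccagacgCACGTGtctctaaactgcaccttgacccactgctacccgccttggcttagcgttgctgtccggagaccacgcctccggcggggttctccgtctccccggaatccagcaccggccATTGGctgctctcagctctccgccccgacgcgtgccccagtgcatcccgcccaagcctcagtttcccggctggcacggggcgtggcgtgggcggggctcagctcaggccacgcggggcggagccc
Fasn: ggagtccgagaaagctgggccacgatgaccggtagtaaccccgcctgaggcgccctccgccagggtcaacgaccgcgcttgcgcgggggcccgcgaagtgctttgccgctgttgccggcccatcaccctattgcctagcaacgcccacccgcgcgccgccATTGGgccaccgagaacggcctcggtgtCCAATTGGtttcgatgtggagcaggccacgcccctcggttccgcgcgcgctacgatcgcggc
The table holds 41 windows for 28 of the members. CCAAT was found in 16 of these 41, against 33.9% of 32851 windows of the same length, and CACGTG in 4 of 41 against 6.02%. The sterol response element TCACNCCAC, a motif of SREBP proteins, was in 1 of 41 against 1.05%, and the GC box GGGCGG, a motif of Sp1, in 21 of 41 against 32.7%. Matches can share bases, as CCAAT and its complement do in the Fasn window and as a CCAAT and a GC box do in a window of Elovl1. The 4 windows shown all hold CCAAT, and they are not those of the 4 largest diet differences. Those of Agpat2 and Acaca, which rose with HFD in wild-type fat by 3.18 and 2.68, hold neither CCAAT nor CACGTG. A match is only a run of letters, and no binding was measured.

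Of 25697 probes, eWAT arrays detected 13570 to 15399 and liver arrays 10626 to 11650, where detected means a detection p under 0.05. Across probes the correlation of the paired arrays of a sample was 0.993 to 0.996 for eWAT, and for liver 0.992 to 0.994. Levels below are log2 intensities after background correction and quantile normalization within a tissue. A difference is given with its limma standard error, n = 2 arrays per group, and a call needs a change of at least 2-fold and an adjusted p (Benjamini-Hochberg, over all features) under 0.05. Fgf1 itself, read as a check of the labels, was lower in Fgf1 null liver by -0.95 ± 0.13 on chow and -1.43 ± 0.13 on HFD, and lower in eWAT on HFD by -1.50 ± 0.17. On chow it was 0.67 ± 0.17 higher in the eWAT sample labelled Fgf1 null than in wild-type, against the direction of the label. The chow differences of Fgf1 in liver and eWAT were both under 2-fold and not called. Its probe was detected on both arrays of every group, those labelled Fgf1 null included. Whether this probe still reads RNA made in Fgf1 null mice was not tested, so its level cannot decide whether a label is right.

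The eWAT samples also differed in transcripts of other organs. Summed over 17 hepatocyte genes, background-corrected intensity was 200305 and 209816 on the 2 arrays of wild-type HFD, against 34469 and 34941 in wild-type chow, 11105 and 10587 in Fgf1 null chow, and 56357 and 53250 in Fgf1 null HFD. In liver this sum was 503399 to 538402. In wild-type chow and Fgf1 null HFD most of the sum was 1 gene, Cyp2e1, at 33475 and 53044 (means of 2 arrays). In Fgf1 null chow Serpina1b was at 4559, Cyp2e1 at 2978 and Serpina1d at 2926. The median hepatocyte gene was at 0.216% of its liver signal in wild-type chow, 0.322% in Fgf1 null HFD and 0.109% in Fgf1 null chow, against 19.5% in wild-type HFD. The sum over 13 exocrine pancreas genes was 525332 and 516630 in Fgf1 null HFD and 77992 and 75302 in wild-type HFD, against 144 to 154 in the chow samples. The sum over 10 epididymis and testis genes was 121336 and 119666 in wild-type chow, 29668 and 26074 in Fgf1 null chow, and 933 and 923 in wild-type HFD, with Fgf1 null HFD at 12784 and 12812. Adipocyte transcripts themselves varied, with a sum over 11 genes of 126144 and 119279 in wild-type chow, 260355 and 265468 in wild-type HFD, 199264 and 212831 in Fgf1 null chow, and 228278 and 236633 in Fgf1 null HFD; the Fabp4 probe was not detected in either wild-type chow or Fgf1 null HFD. Macrophage transcripts, 9 genes, summed to 68154 and 69229 in Fgf1 null chow against 3953 and 3919 in wild-type chow, 20222 and 18653 in wild-type HFD, and 13217 and 13750 in Fgf1 null HFD. In bulk tissue, fewer cells of a type and less RNA per cell cannot be told apart. The part of these transcripts in the results on eWAT was not tested, and the values set against liver below are no test of it.

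**Figure D1:**
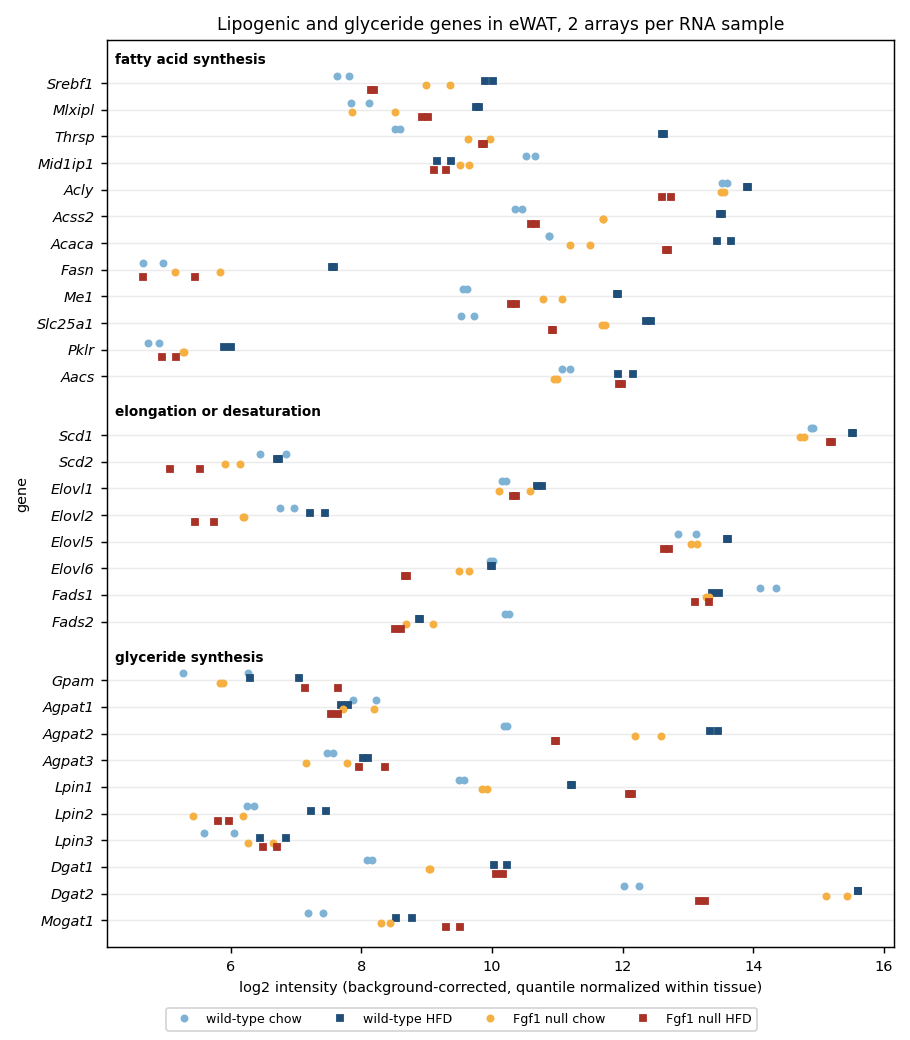
Log2 intensity (horizontal axis) of the 30 measured lipogenic and glyceride genes in eWAT, grouped by role. Each point is 1 array, circles are chow and squares HFD, and colours give genotype and diet; for Thrsp the wild-type HFD arrays (12.60 and 12.63) lie above all others.

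In wild-type eWAT, HFD went with higher levels of most genes of fatty acid and triglyceride synthesis. Of 12 genes of fatty acid synthesis, 9 were higher and 1 was lower, and of 10 glyceride genes, 6 were higher and 0 lower. The 8 elongases and desaturases did not share this: 0 were called higher and 1 lower. In all, 15 members were higher and 2 lower of 30, with adjusted p of at most 0.00519, where 33.3% of all features were called (16.6% higher and 16.7% lower). The median difference of the members was 0.98, and 0.91 with undetected levels at their bound, against 0.11 for all features.

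Among the regulators, Srebf1 was at 7.82 and 7.63 in wild-type chow, 9.89 and 10.02 in wild-type HFD, 9.36 and 8.99 in Fgf1 null chow, and 8.19 and 8.15 in Fgf1 null HFD. The 4 samples do not overlap, and wild-type HFD and Fgf1 null chow are the high ones. With HFD, Srebf1 rose in wild-type by 2.23 ± 0.15. Mlxipl, which encodes ChREBP, was at 7.84 and 8.12 in wild-type chow, 9.75 and 9.80 in wild-type HFD, 7.85 and 8.52 in Fgf1 null chow, and 8.93 and 9.02 in Fgf1 null HFD. The chow samples overlap, both HFD samples lie above them, and the wild-type difference was 1.80 ± 0.21. Thrsp, or Spot 14, a small protein that accompanies lipogenesis, went from 8.59 and 8.51 in wild-type chow to 12.60 and 12.63 in wild-type HFD, a difference of 4.06 ± 0.14. Its levels were 9.63 and 9.97 in Fgf1 null chow and 9.87 and 9.84 in Fgf1 null HFD. The Fgf1 null samples overlap and lie between the wild-type ones. Mid1ip1, the Thrsp paralogue that binds acetyl-CoA carboxylase, went the other way, from 10.52 and 10.66 in wild-type chow to 9.36 and 9.16 in wild-type HFD, a difference of -1.33 ± 0.13. It was at 9.64 and 9.51 in Fgf1 null chow and 9.11 and 9.29 in Fgf1 null HFD, so wild-type chow alone was high.

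The enzymes that supply acetyl-CoA differed among themselves. Slc25a1, the mitochondrial citrate carrier, was at 9.52 and 9.73 in wild-type chow, 12.35 and 12.43 in wild-type HFD, 11.68 and 11.72 in Fgf1 null chow, and 10.92 and 10.94 in Fgf1 null HFD. Acss2, which makes acetyl-CoA from acetate, was at 10.34 and 10.46 in wild-type chow, 13.51 and 13.48 in wild-type HFD, 11.70 on both arrays of Fgf1 null chow, and 10.59 and 10.67 in Fgf1 null HFD. For both genes the order was wild-type HFD highest, then Fgf1 null chow, then Fgf1 null HFD, then wild-type chow, with no overlap. In wild-type the diet difference was 2.77 ± 0.12 for Slc25a1 and 3.10 ± 0.11 for Acss2. Acly, which cleaves citrate, was abundant in all 4 samples, at 13.59 and 13.51 in wild-type chow and 13.92 and 13.90 in wild-type HFD, and its difference of 0.36 ± 0.11 was not called. In Fgf1 null it was at 13.55 and 13.50 on chow and 12.74 and 12.60 on HFD. Aacs, which activates acetoacetate in the cytosol, was at 11.19 and 11.07 in wild-type chow, 12.16 and 11.93 in wild-type HFD, 10.99 and 10.95 in Fgf1 null chow, and 11.99 and 11.94 in Fgf1 null HFD. Both HFD samples lay above both chow samples, and the difference of 0.91 ± 0.12 in wild-type was under 2-fold.

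Acaca, the acetyl-CoA carboxylase that makes malonyl-CoA, was at 10.87 on both arrays of wild-type chow and at 13.65 and 13.45 in wild-type HFD. In Fgf1 null it was at 11.19 and 11.50 on chow and 12.70 and 12.67 on HFD. Acaca thus separated the diets in both genotypes, with the larger difference, 2.68 ± 0.14, in wild-type. The Fasn probe, for fatty acid synthase, was dim. It was detected on both arrays of wild-type HFD, at 7.59 and 7.55, on neither array of wild-type chow, at 4.66 and 4.96, and on 1 array of each Fgf1 null sample, at 5.83 and 5.14 on chow and 5.45 and 4.66 on HFD. Fasn was therefore at least 5.68-fold higher in wild-type HFD than in wild-type chow, and no order of the other 3 samples can be read. Me1, malic enzyme, a source of NADPH, was at 9.61 and 9.56 in wild-type chow, 11.91 and 11.93 in wild-type HFD, 10.78 and 11.07 in Fgf1 null chow, and 10.37 and 10.29 in Fgf1 null HFD, and differed by diet in wild-type by 2.33 ± 0.13. Pklr, the liver-type pyruvate kinase, was near background, and its brightest kept probe was at 5.89 and 6.01 in wild-type HFD and undetected in wild-type chow, a difference of at least 1.85-fold.

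Among the elongases and desaturases, Scd1, the stearoyl-CoA desaturase, was the brightest probe, at 14.91 and 14.88 in wild-type chow and 15.52 and 15.50 in wild-type HFD. It was at 14.72 and 14.77 in Fgf1 null chow and 15.17 and 15.20 in Fgf1 null HFD. The diets do not overlap in either genotype, but the differences of 0.62 ± 0.11 and 0.44 ± 0.11 were under 2-fold. Elovl6, which elongates palmitate, was at 9.97 and 10.01 in wild-type chow and 9.99 and 9.98 in wild-type HFD, so these samples overlap. Fads2, the desaturase that opens polyunsaturated fatty acid synthesis, was lower in wild-type HFD (8.90 and 8.88) than in wild-type chow (10.20 and 10.25), by -1.33 ± 0.15. Fads1, which acts after it, differed by -0.79 ± 0.14, from 14.34 and 14.10 to 13.48 and 13.37, and was not called. The other members, Scd2, Elovl1, Elovl2 and Elovl5, differed by 0.08 to 0.63, with none called.

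The glyceride genes held 2 of the largest differences of the set. Dgat2, which catalyses the last step of triglyceride synthesis, was at 12.26 and 12.02 in wild-type chow, 15.61 on both arrays of wild-type HFD, 15.43 and 15.11 in Fgf1 null chow, and 13.25 and 13.16 in Fgf1 null HFD. Agpat2, which makes phosphatidate and is needed for fat cell formation in mice and people, was at 10.23 and 10.18 in wild-type chow, 13.45 and 13.33 in wild-type HFD, 12.58 and 12.19 in Fgf1 null chow, and 10.97 and 10.98 in Fgf1 null HFD. Both genes were high in wild-type HFD and Fgf1 null chow and low in the other 2 samples, with no overlap. With HFD in wild-type Dgat2 rose by 3.47 ± 0.15 and Agpat2 by 3.18 ± 0.15. Dgat1, the second enzyme of the last step, was at 8.17 and 8.08 in wild-type chow, 10.23 and 10.03 in wild-type HFD, 9.05 and 9.03 in Fgf1 null chow, and 10.06 and 10.16 in Fgf1 null HFD, and rose by 2.00 ± 0.12 in wild-type. Lpin1, the main phosphatidate phosphatase of fat, was at 9.50 and 9.58 in wild-type chow, 11.22 and 11.21 in wild-type HFD, 9.92 and 9.85 in Fgf1 null chow, and 12.14 and 12.10 in Fgf1 null HFD, and rose by 1.68 ± 0.11 in wild-type. For these 2 genes both HFD samples lie above both chow samples. Mogat1, a monoacylglycerol acyltransferase, rose by 1.35 ± 0.15 in wild-type, from 7.42 and 7.18 to 8.77 and 8.53. Lpin2 rose by 1.04 ± 0.23, a call that was lost without the second wild-type HFD array (0.92) or the second wild-type chow array (0.99). Without background correction and in the authors' normalized values Lpin2, Pklr (0.36 and 0.41) and Mogat1 (0.93 and 0.92) came under 2-fold. Gpam, the mitochondrial acyltransferase of the first step, differed by 0.90 ± 0.36 and was not called, nor were Agpat1, Agpat3 and Lpin3.

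Wild-type HFD eWAT was also the fat sample with most hepatocyte transcripts, and 12 of 13 hepatocyte genes measured in eWAT were called higher there than in wild-type chow. In the same comparison 7 of 11 adipocyte, 8 of 9 macrophage and 13 of 13 pancreas genes were also higher, and 8 of 9 epididymis and testis genes lower. Their part in the differences was not tested. Levels were also set against wild-type HFD liver after joint normalization of all 16 arrays. The 14 hepatocyte genes with a detected liver signal were in that eWAT at 3.58% to 64.8% of their liver signal, with a median of 19.5%, and the 5 of them with a liver signal under 30000, where the scanner limits the signal less, were at 3.58% to 10.9%. Of the 30 members, 18 had more than 64.8% of their liver signal in that eWAT, among them Dgat1 (611%), Agpat2 (486%), Dgat2 (410%), Acaca (299%), Me1 (219%), Slc25a1 (124%), Thrsp (85.3%), Acss2 (84.9%) and Fasn (71.9%). The other 12 lay inside the range of the hepatocyte genes, among them Srebf1 (36.9%), Elovl6 (35.9%), Mlxipl (27.9%), Lpin2 (10.7%), Pklr (10.5%) and Elovl2 (5.10%). The 64.8% at the top of that range was Cyp2e1, which was at 66.4% in wild-type chow, where the median was 0.216%. The 3.58% at the bottom was Tdo2, which was not detected in that eWAT, and the next lowest hepatocyte gene was F2 at 8.84%. Of the 12, only Lpin2, Pklr and Fads2 (10.2%) lay within the 8.84% to 10.9% of the detected dimmer hepatocyte genes. Elovl2 lay below them. Where a percentage exceeds 100, as for 14 members, the eWAT sample had more signal than liver itself. Among these 14, Scd2 and Lpin3 were not detected in liver. Set against liver of the same genotype and diet, 15 of the 30 members were above the highest hepatocyte gene in wild-type chow eWAT. In Fgf1 null this was so for 27 on chow and 7 on HFD. A high percentage thus also occurs without many hepatocyte transcripts and does not speak to the diet difference. The part of hepatocyte transcripts in the eWAT level or diet difference of any member was not tested.

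**Figure D2:**
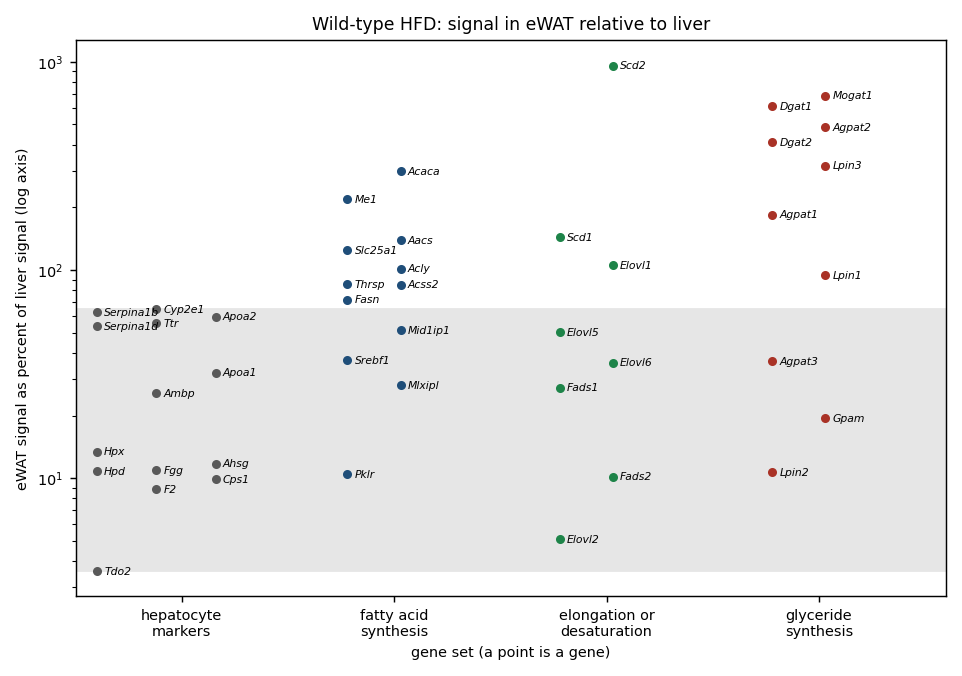
Signal in wild-type HFD eWAT as a percentage of that in wild-type HFD liver (vertical log axis) for 14 hepatocyte genes and the 30 members by role, 1 point per gene from the mean of 2 arrays. The grey band is the range of the hepatocyte genes, 3.58% to 64.8%, with Dgat1 (611%) far above it and Elovl2 (5.10%) inside it. Its low end is Tdo2, which was not detected in that eWAT, and the next lowest hepatocyte gene is F2 at 8.84%. Scd2 and Lpin3 were not detected in liver.

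Fat labelled Fgf1 null did not show the same diet difference. There, 5 members were higher on HFD and 4 lower of 30, with adjusted p of at most 0.0139, where 10.2% of all features were called (4.18% higher and 6.02% lower). The median difference of the members was -0.27 against -0.03 for all features. Of the 12 genes of fatty acid synthesis 1 was higher and 2 were lower, of the 8 elongases and desaturases 0 were called in either direction, and of the 10 glyceride genes 4 were higher and 2 lower. At an unadjusted p under 0.05, 21 of the 30 members differed, where 44.2% of all features did.

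The members that were higher with HFD in Fgf1 null eWAT were Lpin1, by 2.23 ± 0.11, Gpam, by 1.53 ± 0.36, Acaca, by 1.34 ± 0.14, Dgat1, by 1.07 ± 0.12, and Mogat1, by 1.03 ± 0.15. Gpam was at 5.83 and 5.88 in Fgf1 null chow and 7.13 and 7.64 in Fgf1 null HFD, and Mogat1 was at 8.31 and 8.44 and at 9.50 and 9.30. Neither overlapped between diets, but both calls depend on single arrays. Without the first Fgf1 null chow array, Mogat1 came to 0.96 and Gpam to 1.49 with an adjusted p of 0.0718, and without the first Fgf1 null HFD array Mogat1 came to 0.92. Without the second Fgf1 null chow array Gpam came to 1.54 at an adjusted p of 0.0571, and without the second Fgf1 null HFD array to 1.28 at 0.0731. The Dgat1 call was lost without background correction, in the authors' normalized values and with median scaling (0.92 to 0.94). The members that were lower were Dgat2, by -2.06 ± 0.15, Agpat2, by -1.41 ± 0.15, Acss2, by -1.07 ± 0.11, and Srebf1, by -1.002 ± 0.15. The Srebf1 call was lost without the first Fgf1 null chow array (-0.82) or the second Fgf1 null HFD array (-0.98). A second, dimmer Acss2 probe differed by 0.39 in the opposite direction, and averaging the probes of the gene brought Acss2 to -0.34. Thrsp differed by 0.05 ± 0.14, Acly by -0.85 ± 0.11, Elovl6 by -0.88 ± 0.11 and Slc25a1 by -0.77 ± 0.12, and none of these was called. Beside these values, the pancreas sum was at its highest in Fgf1 null HFD and the macrophage sum in Fgf1 null chow, and their part in the differences was not tested.

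The genotypes were then set side by side on each diet; these comparisons share samples with the diet comparisons above. On HFD, fat labelled Fgf1 null had less of the lipogenic transcripts than wild-type fat: 0 members were higher and 13 lower of 30, with adjusted p of at most 0.00253, where 11.3% of all features were called (5.27% higher and 6.01% lower). The median difference was -0.88, and -0.83 with undetected levels at their bound, against 0.01 for all features. Of the fatty acid synthesis genes 7 of 12 were lower, of the elongases and desaturases 3 of 8, and of the glyceride genes 3 of 10. Acss2 was lower by -2.87 ± 0.11, Thrsp by -2.76 ± 0.14, Fasn by -2.51 ± 0.30, Srebf1 by -1.78 ± 0.15, Me1 by -1.59 ± 0.13, Slc25a1 by -1.46 ± 0.12 and Acly by -1.24 ± 0.11. In none of these 7 did the 4 arrays on HFD overlap between genotypes, which adds no support, since the genes were picked by their calls. Fasn was detected on only 1 of the 2 Fgf1 null HFD arrays, so its difference rests on a level near background. A second, dimmer Me1 probe differed by -0.69, under 2-fold. Elovl2, an elongase of polyunsaturated fatty acids, was lower by -1.73 ± 0.15, Scd2 by -1.43 ± 0.20 and Elovl6 by -1.30 ± 0.11. Elovl6 was at 8.70 and 8.66 in Fgf1 null HFD, 9.49 and 9.64 in Fgf1 null chow and near 10 in both wild-type samples. Agpat2 was lower by -2.42 ± 0.15, Dgat2 by -2.40 ± 0.15 and Lpin2 by -1.44 ± 0.23. Other glyceride genes did not follow: Lpin1 was 0.91 ± 0.11 and Mogat1 0.75 ± 0.15 above wild-type, under 2-fold and not called, and Dgat1 differed by -0.02 ± 0.12. In the same comparison 12 of 13 hepatocyte genes were lower and 13 of 13 pancreas genes higher in Fgf1 null HFD. Their part in these differences was not tested. The calls of Scd2 (-0.53 and -0.57), Elovl2 and Lpin2 were lost without background correction and in the authors' normalized values.

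On chow the direction was turned for some members only. Of 30 members 8 were higher and 2 lower in fat labelled Fgf1 null, with adjusted p of at most 0.000461, where 27.3% of all features were called (13.7% higher and 13.6% lower), so that the share of members called was close to that of all features. The median was 0.18 against 0.07 for all features. Of the fatty acid synthesis genes 5 of 12 were higher and 1 lower, and of the glyceride genes 3 of 10 were higher and 0 lower. Of the 8 elongases and desaturases 0 were higher and 1 lower, with a median of -0.52 on chow and -0.66 on HFD. Dgat2 was higher by 3.13 ± 0.15, Agpat2 by 2.18 ± 0.15, Slc25a1 by 2.08 ± 0.12, Srebf1 by 1.45 ± 0.15, Me1 by 1.34 ± 0.13, Acss2 by 1.30 ± 0.11, Thrsp by 1.25 ± 0.14 and Mogat1 by 1.07 ± 0.15. Fads2 was lower by -1.34 ± 0.15 and Mid1ip1 by -1.01 ± 0.13. The calls of Mid1ip1 and Mogat1 were lost without the second Fgf1 null chow array (-0.95 and 1.00) or the second wild-type chow array (-0.96 and 0.97), and averaging its probes brought Acss2 to 0.92. Fgf1 was higher, though not called, in the sample labelled Fgf1 null of this pair, against the direction of the label. The macrophage sum there was 68691 against 3936 in wild-type chow (means of 2 arrays), and 8 of 9 macrophage genes were higher. In that sample 5 of 11 adipocyte genes were also higher and 6 of 9 epididymis and testis genes lower. The part of these transcripts in the differences was not tested.

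The difference between the diet differences, tested as the interaction in eWAT, was called for 15 of 30 members, 1 higher and 14 lower in Fgf1 null, where 39.5% of all features were called (19.3% higher and 20.2% lower). The share of members called was therefore not far from that of all features, and the members' median was -0.94 against -0.04 for all features. Other lists also moved in this interaction: 6 of 11 adipocyte genes (median -1.10), 9 of 9 macrophage genes (-4.56) and 12 of 13 hepatocyte genes (-5.36) were lower, and 13 of 13 pancreas genes (3.12) and 8 of 9 epididymis and testis genes (6.95) higher. Their part in the members' values was not tested. Of the fatty acid synthesis genes 10 of 12 were called lower. The negative interactions were led by Dgat2 at -5.53 ± 0.21, Agpat2 at -4.60 ± 0.21, Acss2 at -4.17 ± 0.16 and Thrsp at -4.01 ± 0.19. Dgat2, Agpat2, Acss2 and Srebf1 were called higher on HFD in wild-type and lower in Fgf1 null, each read from its brightest probe. Aacs (0.08 ± 0.18), Scd1 (-0.18 ± 0.15) and Mogat1 (-0.32 ± 0.21) did not pass the test.

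**Figure D3:**
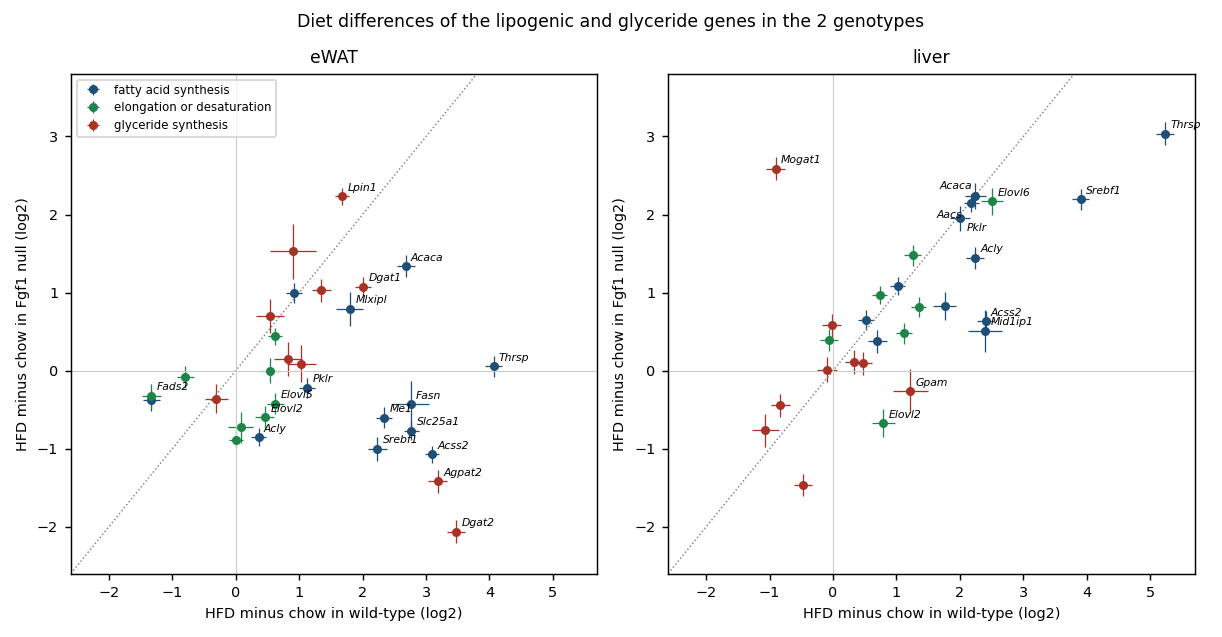
HFD minus chow (log2) in wild-type (horizontal) against Fgf1 null (vertical) for each measured member in eWAT (left) and liver (right), coloured by role, with bars of 1 standard error (n = 2 arrays per group) and the line of equal differences dotted. Dgat2 in eWAT (3.47 and -2.06) lies far below the line, and Mogat1 in liver (-0.91 and 2.59) far above it.

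In wild-type liver 15 members were higher on HFD and 1 lower of 28, with adjusted p of at most 0.0209, where 5.72% of all features were called (3.24% higher and 2.48% lower). In Fgf1 null liver 10 were higher and 1 lower, with adjusted p of at most 0.000567, where 8.58% were called (5.88% higher and 2.7% lower). The median difference was 1.07 in wild-type and 0.64 in Fgf1 null, against 0.00 and 0.02 for all features. Of the fatty acid synthesis genes 10 of 12 were higher in wild-type and 7 of 12 in Fgf1 null, and of the elongases and desaturases 4 of 7 and 2 of 7. Of the 9 glyceride genes, 1 was higher and 1 lower in each genotype.

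**Figure D4:**
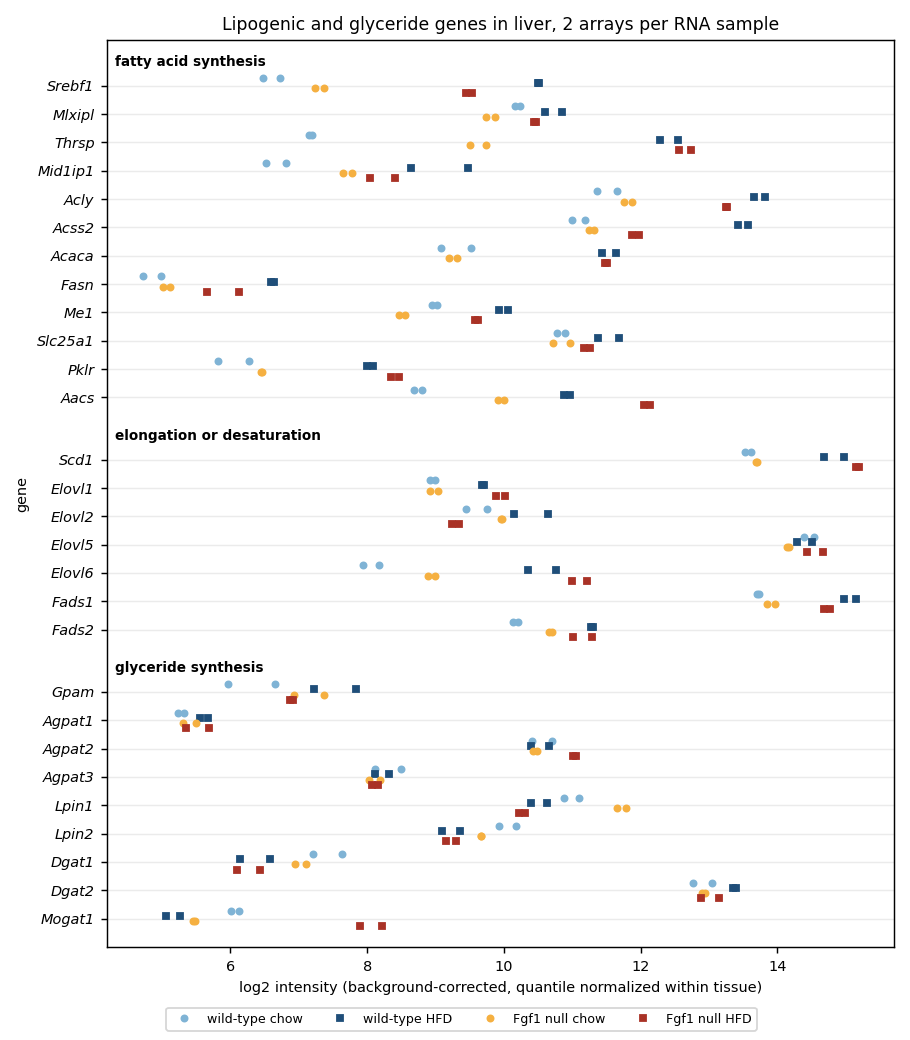
Log2 intensity (horizontal axis) of the 28 members measured in liver, grouped by role. Each point is 1 array, circles are chow and squares HFD, and colours give genotype and diet; both HFD samples of Srebf1 (9.45 to 10.51) lie above both chow samples (6.47 to 7.36).

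Srebf1 in liver was at 6.47 and 6.72 in wild-type chow, 10.49 and 10.51 in wild-type HFD, 7.23 and 7.36 in Fgf1 null chow, and 9.54 and 9.45 in Fgf1 null HFD. The 4 samples do not overlap, and the rise with HFD was 3.90 ± 0.13 in wild-type and 2.19 ± 0.13 in Fgf1 null. Thrsp was at 7.20 and 7.15 in wild-type chow, 12.54 and 12.28 in wild-type HFD, 9.74 and 9.50 in Fgf1 null chow, and 12.57 and 12.74 in Fgf1 null HFD. It rose by 5.23 ± 0.15 in wild-type, the largest difference of any member, and by 3.04 ± 0.15 in Fgf1 null. The HFD samples of Thrsp lay close together and its chow samples apart. Mid1ip1 was at 6.81 and 6.52 in wild-type chow, 9.48 and 8.64 in wild-type HFD, 7.64 and 7.78 in Fgf1 null chow, and 8.04 and 8.41 in Fgf1 null HFD. It rose by 2.40 ± 0.27 in wild-type, whereas in wild-type eWAT it was lower on HFD. The first and second arrays of wild-type HFD liver also differed in the pancreas sum, at 1987 and 427, against 307 to 479 in the other liver samples. The part of this gap in the wild-type liver differences was not tested. Mlxipl differed by 0.52 ± 0.13 and 0.65 ± 0.13, and neither was called.

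Of the enzymes, Acly was at 11.66 and 11.36 in wild-type chow, 13.83 and 13.66 in wild-type HFD, 11.76 and 11.87 in Fgf1 null chow, and 13.26 on both arrays of Fgf1 null HFD. Acaca was at 9.52 and 9.08 in wild-type chow, 11.65 and 11.44 in wild-type HFD, 9.20 and 9.32 in Fgf1 null chow, and 11.48 and 11.50 in Fgf1 null HFD. For Acaca the genotypes overlap on each diet and the diets are far apart. The rise with HFD was 2.23 ± 0.14 and 1.44 ± 0.14 for Acly, and 2.24 ± 0.17 and 2.23 ± 0.17 for Acaca, in wild-type and Fgf1 null. Pklr, which in liver is the main pyruvate kinase, rose by 2.00 ± 0.16 and 1.95 ± 0.16, from 5.82 and 6.27 to 8.09 and 7.997 in wild-type and from 6.45 and 6.46 to 8.47 and 8.35 in Fgf1 null. A dimmer detected Pklr probe differed by 0.78 in wild-type and 1.46 in Fgf1 null. Acss2 was at 11.18 and 11.00 in wild-type chow, 13.42 and 13.57 in wild-type HFD, 11.32 and 11.25 in Fgf1 null chow, and 11.87 and 11.97 in Fgf1 null HFD. Wild-type HFD stood above the other 3 samples, with a rise of 2.40 ± 0.13 in wild-type and a difference of 0.63 ± 0.13 in Fgf1 null that was not called. Fasn was undetected in both chow livers and detected in both HFD livers, at 6.63 and 6.59 in wild-type and 6.12 and 5.66 in Fgf1 null, at least 2.57-fold and 1.57-fold above chow, of which the first was called. Me1 rose by 1.02 ± 0.12 and 1.08 ± 0.12. The wild-type call of Me1 was lost without the second HFD array (0.96) or the first chow array (0.98), and its second, dimmer probe differed by -0.63. Slc25a1, which rose in wild-type fat, differed by 0.70 ± 0.15 and 0.37 ± 0.15 in liver and was not called.

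Aacs was at 8.80 and 8.69 in wild-type chow, 10.97 and 10.88 in wild-type HFD, 10.00 and 9.91 in Fgf1 null chow, and 12.05 and 12.14 in Fgf1 null HFD. It rose with HFD by 2.18 ± 0.12 and 2.14 ± 0.12, and was higher in Fgf1 null by 1.21 ± 0.12 on chow and 1.17 ± 0.12 on HFD. The arrays of the 4 samples did not overlap, and the interaction was -0.03 ± 0.17. In the authors' normalized values the genotype differences of Aacs were 0.95 and 0.99, under 2-fold.

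Scd1 in liver was at 13.62 and 13.53 in wild-type chow, 14.68 and 14.97 in wild-type HFD, 13.69 and 13.70 in Fgf1 null chow, and 15.15 and 15.19 in Fgf1 null HFD, with a rise of 1.25 ± 0.13 and 1.48 ± 0.13. Elovl6 was at 8.17 and 7.93 in wild-type chow, 10.77 and 10.35 in wild-type HFD, 8.88 and 8.99 in Fgf1 null chow, and 11.22 and 11.00 in Fgf1 null HFD. It rose by 2.50 ± 0.17 and 2.17 ± 0.17, and both HFD samples lay above both chow samples, unlike in eWAT. Fads1 rose by 1.35 ± 0.12 and Fads2 by 1.12 ± 0.13 in wild-type, while in Fgf1 null they differed by 0.81 ± 0.12 and 0.48 ± 0.13 and were not called. Elovl2 was at 9.76 and 9.45 in wild-type chow, 10.15 and 10.64 in wild-type HFD, 9.96 and 9.97 in Fgf1 null chow, and 9.24 and 9.34 in Fgf1 null HFD, the last being the low sample. In the authors' normalized values the wild-type differences of Scd1 (0.98) and Fads2 (0.89) were under 2-fold. Elovl1 (0.73 ± 0.12 and 0.97 ± 0.12) and Elovl5 (-0.07 ± 0.14 and 0.39 ± 0.14) were not called.

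The glyceride genes of liver differed one by one. Dgat2 was at 13.04 and 12.77 in wild-type chow, 13.39 and 13.35 in wild-type HFD, 12.94 and 12.90 in Fgf1 null chow, and 13.15 and 12.88 in Fgf1 null HFD. The 4 samples lie within 1 log2 unit, the Fgf1 null samples overlap, and no Dgat2 difference was called in liver. Mogat1 was at 6.01 and 6.13 in wild-type chow, 5.26 and 5.06 in wild-type HFD, where it was detected on 1 array, 5.45 and 5.48 in Fgf1 null chow, and 8.21 and 7.89 in Fgf1 null HFD. Fgf1 null HFD stood above the rest, with a rise of 2.59 ± 0.15 by diet in Fgf1 null and a difference of 2.89 ± 0.15 from wild-type HFD. Lpin1 was lower on HFD in Fgf1 null by -1.46 ± 0.14, from 11.66 and 11.79 to 10.31 and 10.22, and differed by -0.48 ± 0.14 in wild-type, from 10.88 and 11.10 to 10.40 and 10.63. In eWAT both genotypes had more Lpin1 on HFD. Dgat1 was lower on HFD in wild-type liver by -1.07 ± 0.21, a call lost without the first HFD array (-0.85) or the first chow array (-0.86). Gpam was higher by 1.22 ± 0.28, a call lost without the same arrays (0.91 and 0.88). Agpat1, Agpat2, Agpat3 and Lpin2 were called in neither genotype.

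Between genotypes, few liver members differed, each read from its brightest probe. On chow 2 were higher and 0 lower of 28 in Fgf1 null, where 1.79% of all features were called (1% higher and 0.787% lower): Thrsp, by 2.44 ± 0.15, and Aacs. On HFD 2 were higher and 3 lower, where 4.96% were called (3.34% higher and 1.62% lower). Mogat1 and Aacs were the higher ones, and the lower ones were Acss2, by -1.57 ± 0.13, Elovl2, by -1.11 ± 0.18, and Srebf1, by -1.01 ± 0.13. Without the second wild-type HFD array Srebf1 came to -0.9986 and Elovl2 to -0.86, under 2-fold. Without the second Fgf1 null HFD array Srebf1 came to -0.97, and without the first Elovl2 had an adjusted p of 0.0579. The dimmer Elovl1 probes differed by -0.06 to 1.22 on chow, against 0.03 for the probe used. A second, dimmer Me1 probe differed by 1.31 on HFD, against -0.40 for the probe used. The macrophage sum in Fgf1 null HFD liver was 6342 and 6716, against 2491 and 2911 in wild-type HFD, 1522 and 1459 in wild-type chow and 1980 and 1969 in Fgf1 null chow. Its part in these differences was not tested. By limma 0 of 14 hepatocyte genes were called between genotypes in liver, with 1 at an unadjusted p under 0.05 on chow and 3 on HFD. Of these 14 genes, 9 had a mean intensity over 30000, where the scanner limits the signal. Among the other 5, Cps1 differed by -0.99, Hpd by -0.79 and Tdo2 by -0.60 on HFD, and the same 3 were called lower by diet in Fgf1 null liver and in the interaction. The liver interaction was called for 7 of 28 members, 1 higher and 6 lower in Fgf1 null, where 7.9% of all features were called (4.53% higher and 3.37% lower). Of these, Thrsp was at -2.20 ± 0.21, Acss2 at -1.77 ± 0.18, Srebf1 at -1.71 ± 0.19 and Mogat1 at 3.49 ± 0.21.

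The diet differences of the 4 pairs of samples, 2 in each tissue, share no sample. For Aacs, Acaca, Mlxipl, Scd1 and Thrsp, 5 of the 28 members measured in both tissues, HFD was above chow in all 4 pairs, which was so for 7.55% of 8623 genes, and for 0 members was it below in all 4, against 4.5%. In size these 5 ranged widely: Thrsp differed by 5.23 and 3.04 in liver and by 4.06 and 0.05 in eWAT, and Acaca by 2.24 and 2.23 in liver and 2.68 and 1.34 in eWAT, in wild-type and Fgf1 null. Between genotypes Lpin2 was the 1 member with a negative difference in all 4 pairs, against 4.51% of genes, but in HFD liver the difference was -0.0030 with overlapping arrays.

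A fit with the RNA sample as the unit, additive in diet and genotype, has 4 samples and 1 residual degree of freedom per tissue. By limma it called 0 features of 8894 in liver and 0 of 11935 in eWAT for either factor. At an unadjusted p under 0.05, 19 of 28 members differed by diet in liver, where 13.2% of all features did, and 2 of 28 by genotype, Aacs (1.19 ± 0.20) and Elovl6 (0.72 ± 0.21), where 3.4% did. In liver the diet difference across the genotypes was 4.14 ± 0.56 for Thrsp, 3.05 ± 0.45 for Srebf1, 2.34 ± 0.21 for Elovl6 and 2.24 ± 0.20 for Acaca, with an adjusted p of 0.134 for Acaca. In eWAT 3 of 30 members differed by diet at that level, Acaca (2.01), Lpin1 (1.95) and Dgat1 (1.54), where 1.65% of features did, and 0 of 30 by genotype, where 0.612% did.

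The tissues were compared within each genotype and diet after normalization of all arrays together. In wild-type chow, 12 members were higher in liver and 6 in eWAT, where 45.1% of all features were called (20.4% higher in liver and 24.7% lower). In Fgf1 null chow 9 were higher in liver and 8 in eWAT, where 39.7% were called (16.1% and 23.6%). In wild-type HFD these counts were 10 and 8, where 32.8% were called (14.3% and 18.5%), and in Fgf1 null HFD 14 and 3, where 31.7% were called (13.7% and 18%). Pklr, Elovl2, Lpin2, Agpat3 and Mlxipl were higher in liver in all 4 pairs, and the share of all features for which this was so was not counted. The Agpat3 calls on HFD were lost under some alternatives, at 0.91 to 0.998 in wild-type and 0.85 to 0.96 in Fgf1 null. The Pklr probe was detected on 1 wild-type chow eWAT array, and its call in that pair was lost without background correction (0.71). Elovl2 differed by 3.83 to 4.72, Lpin2 by 3.03 to 4.76 and Mlxipl by 1.81 to 3.23, while Pklr was higher in liver by 1.95 in wild-type chow and 2.86 in wild-type HFD. This is another Pklr probe than the one used within eWAT, and it was undetected in both Fgf1 null eWAT samples, so that Pklr was at least 4.88-fold (chow) and 15.4-fold (HFD) higher in liver there. The order for the storage genes depended on the sample. Dgat2 in liver was 1.20 above eWAT in wild-type chow, 0.14 above in Fgf1 null HFD (not called), and -2.03 and -2.08 from eWAT in wild-type HFD and Fgf1 null chow. Agpat2 behaved alike, at 1.21 and 0.81 (the second not called) and at -2.27 and -1.26. Thrsp was higher in liver only in Fgf1 null HFD, by 3.44, and differed by -0.08 to 0.83 in the other 3 pairs, where it was not called.

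Genes of the wider pathway were read from 4 further lists, whose counts stand beside the shares of all features called. By diet these were 33.3% in wild-type and 10.2% in Fgf1 null eWAT, and 5.72% and 8.58% in liver. By genotype in eWAT they were 27.3% on chow and 11.3% on HFD. In the list of SREBP processing and nuclear receptor control, 4 of 16 were higher and 0 lower in wild-type eWAT on HFD, led by Nr1h3, the liver X receptor that activates Srebf1 (2.22 ± 0.13), and Insig1, an SREBP target that holds SREBP in the endoplasmic reticulum (2.01 ± 0.16). On HFD Insig1 was lower in Fgf1 null eWAT by -1.15 ± 0.16 and Irs2, an insulin receptor substrate, higher by 1.07 ± 0.25, the 2 called of 16. In Fgf1 null eWAT by diet 4 of 16 were higher and 1 lower, with Irs2 at 2.24 ± 0.25 and the kinase Akt2 at 1.80 ± 0.13. In liver 0 of 15 were called higher and 1 lower in wild-type by diet, Insig2 at -2.12 ± 0.12, and 0 higher and 2 lower in Fgf1 null, Ppargc1b at -1.45 ± 0.16 and Srebf2 at -1.31 ± 0.20. On chow 2 of 16 were higher and 1 lower in eWAT labelled Fgf1 null.

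In the list of glucose and fructose supply, 8 of 13 were higher and 0 lower in wild-type eWAT on HFD, among them the glucose transporters Slc2a2, known from liver (3.94 ± 0.16), and Slc2a4, known from fat and muscle (2.58 ± 0.20), and pyruvate carboxylase, Pcx (2.47 ± 0.14). On HFD 1 of 13 was higher and 3 were lower in Fgf1 null eWAT: Slc2a2 was at least 11.8-fold lower, Khk, the fructose kinase, lower by -2.36 ± 0.11, and Pdk4, which restrains pyruvate dehydrogenase, higher by 2.19 ± 0.11. In this comparison 12 of 13 hepatocyte, 4 of 9 macrophage and 2 of 11 adipocyte genes were also lower, and 13 of 13 pancreas genes higher. Their part in these differences was not tested. On chow 4 of 13 were higher and 0 lower, and by diet in Fgf1 null 2 were higher and 2 lower. In liver 1 of 12 was higher and 2 were lower in wild-type on HFD, led by Pdk4 at -2.06 ± 0.17, and 3 were higher and 0 lower in Fgf1 null, led by Pkm at 1.48 ± 0.13.

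Of 13 other elongases, desaturases and acyl-CoA synthetases, 5 were higher and 2 lower in wild-type eWAT on HFD, with Fads3 at 1.84 ± 0.17, Hsd17b12, a reductase of the elongation cycle, at 1.62 ± 0.19, and Acsl6 at least 13.6-fold lower. Acsl6 was also lower in chow eWAT labelled Fgf1 null, by -4.20 ± 0.26, and wild-type chow was the sample with the highest epididymis and testis sum. The part of those transcripts in the Acsl6 differences was not tested. In liver Elovl3, an elongase of very long chains, was lower on HFD by -2.25 ± 0.15 in wild-type and -1.30 ± 0.15 in Fgf1 null, in lists with 1 of 11 higher and 1 lower, and 0 and 1. Of 15 other glycerol phosphate and glyceride genes, 5 were higher and 1 lower in wild-type eWAT on HFD. Mogat2 was at 4.15 ± 0.17, Gpd1, which makes glycerol phosphate, at 3.09 ± 0.16, and Gpd2, its mitochondrial counterpart, at -2.29 ± 0.19. On HFD 1 of 15 was higher and 3 were lower in Fgf1 null eWAT: Mogat2 was at least 14.4-fold lower, Gpd1 lower by -1.57 ± 0.16 and Pck1, the enzyme of glyceroneogenesis, higher by 1.65 ± 0.16. In Fgf1 null eWAT 2 were higher and 1 lower by diet, with Pck1 at 2.82 ± 0.16. In liver 0 of 12 were higher and 2 lower in wild-type on HFD, Gpat3 (-1.88 ± 0.13) and Gpd1 (-1.56 ± 0.23), and 1 was higher and 1 lower in Fgf1 null, with Pck1 at -2.06 ± 0.19.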

How the data were processed

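Per the labels, total RNA was labelled with biotin and hybridized to 1-colour Illumina mouse bead arrays, 2 technical replicate arrays for each of 8 RNA samples. The submitters' processing notes name GenomeStudio, and its settings, a scan date and a genome build are not given in the sources used here. The deposited non-normalized table holds a linear intensity and a detection p-value for each of 25697 probes and 16 arrays. The authors also deposited normalized intensities, made by a method not stated, with column medians of 134.6 to 134.8, used here only as an alternative. By the platform annotation, 1 gene symbol is given for 23978 probes, several for 0 and none for 1719; 23962 were matched to RefSeq by Entrez identifier, with 0 symbols changed.

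In R 4.3.3 with limma 3.58.1 (tables read by data.table, version 1.17.8), neqc corrected the background (estimated through the detection p-values, offset 16) and applied quantile normalization to log2 values within a tissue, or over all 16 arrays for the tissue comparison. Background correction spreads dim probes out, and the scanner limits bright ones, although no member probe exceeded 60000. Probes detected (p under 0.05) on both arrays of 1 or more groups were kept, and each gene was read from its brightest such probe: 10995 genes and 940 unnamed probes in eWAT, 8211 and 683 in liver, 11237 and 969 over both. Residual degrees of freedom were 4 per tissue and 8 over both, with prior degrees of freedom of 3.75 (eWAT), 3.64 (liver) and 2.96 (both). Precision is limited by the number of arrays, and the arrays of a sample had a median SD of 0.104 in eWAT and 0.113 in liver. Where a probe was undetected on both arrays of the lower group, the fold is at least the higher mean over, per array, the larger of the lowest detected signal and the probe's own. The fit was tested on simulated data with known changes.

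All members are named, and of each wider list at most the 3 called genes of largest change per comparison. The members, though taken by symbol, the lists and the tests were chosen with earlier results of these data known. Same-numbered arrays of different samples did not deviate together (over 6 pairs of groups, r was -0.045 to 0.051 for eWAT, and for liver -0.068 to 0.014). Alternatives were no background correction, the authors' normalized values, median scaling, a 1.5-fold minimum, no detection filter or a detection p under 0.01, the mean of a gene's probes, the replicate number as a block, leaving out each array, and 1 added after the data were seen.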

Additional observations from a re-analysis of the deposited data

Results flagged for a closer look

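In eWAT the diet difference of 15 of 30 members differed between genotypes by the interaction test, where 39.5% of all features were called. Values are the difference in Fgf1 null minus that in wild-type. For Dgat2 it was -5.53, from 3.47 in wild-type and -2.06 in Fgf1 null. For Agpat2 it was -4.60 (3.18 and -1.41), for Acss2 -4.17 (3.10 and -1.07) and for Srebf1 -3.23 (2.23 and -1.002). Dgat2, Agpat2, Acss2 and Srebf1 were each called higher on HFD in wild-type and lower in Fgf1 null. The dimmer Acss2 probe was higher on HFD in both genotypes, by 1.94 in wild-type and 0.39 in Fgf1 null. Thrsp was at -4.01 (4.06 and 0.05), Slc25a1 at -3.54 (2.77 and -0.77), Fasn at -3.19 (2.76 and -0.43) and Me1 at -2.94 (2.33 and -0.60). Smaller values were those of Pklr at -1.35 (1.13 and -0.22), Acaca at -1.34 (2.68 and 1.34), Acly at -1.21 (0.36 and -0.85), Elovl2 at -1.06 (0.46 and -0.60), Elovl5 at -1.05 (0.63 and -0.42) and Mlxipl at -1.01 (1.80 and 0.79). Slc25a1, Fasn, Me1, Pklr, Acly, Elovl2 and Elovl5 also had opposite signs, but were not called in Fgf1 null. Fads2, at 1.01 (-1.33 and -0.32), was the 1 member with a positive value. For Fasn and Pklr these are fitted values with undetected levels in wild-type chow and are no bounds.

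Some of these calls rest on single arrays. The call of Mlxipl was lost without the second wild-type HFD array (-0.98), the second Fgf1 null chow array (-0.67), the first wild-type chow array (-0.88) or the first Fgf1 null HFD array (-0.96). That of Elovl2 was lost without the second array of wild-type HFD (-0.95), wild-type chow (-0.94) or Fgf1 null HFD (-0.92), and that of Elovl5 without the first Fgf1 null chow array (-0.98) or the second wild-type chow array (-0.92). The Fads2 call was lost without the second array of wild-type HFD (0.99), wild-type chow (0.99) or Fgf1 null chow (0.79), or the first of Fgf1 null HFD (0.96).

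In liver 7 of 28 members passed the same test, where 7.9% of all features were called. Mogat1 was at 3.49, from -0.91 in wild-type and 2.59 in Fgf1 null. Thrsp was at -2.20 (5.23 and 3.04), Mid1ip1 at -1.88 (2.40 and 0.51), Acss2 at -1.77 (2.40 and 0.63), Srebf1 at -1.71 (3.90 and 2.19), Gpam at -1.48 (1.22 and -0.26) and Elovl2 at -1.47 (0.79 and -0.67). Without the first Fgf1 null HFD array the adjusted p of Elovl2 was 0.0528 and that of Mid1ip1 0.0767, and without the first or second Fgf1 null chow array that of Mid1ip1 was 0.0516 or 0.0669. The Gpam call, at an adjusted p of 0.0491, was lost without the first wild-type HFD array (-1.17), the first wild-type chow array (-1.14), either Fgf1 null HFD array (-1.51 and -1.45) or either Fgf1 null chow array (-1.27 and -1.70). Each of these values compares 4 RNA samples.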

How the results depend on the processing

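No member difference called in the tissue and sample comparisons changed sign under any alternative run. Without background correction the members called by diet in Fgf1 null eWAT fell to 5 from 9 and those by genotype on HFD in liver to 3 from 5; in the authors' normalized values these counts were 5 and 2, and that by genotype on chow in liver was 1 rather than 2. With a 1.5-fold minimum, 18 were called by diet in Fgf1 null eWAT, 18 in Fgf1 null liver rather than 11, and 5 by genotype on chow in liver. Shares of all features called at 1.5-fold, in the authors' values, with median scaling or with 1 array left out are not given here. The member counts under those settings therefore cannot be set against the shares above. With the 12 members called higher in wild-type chow liver than in wild-type chow fat left out, which leaves 18 and was chosen after the data were seen, eWAT counts were 9 by diet in wild-type, 4 by diet in Fgf1 null, 6 by genotype on chow, 7 by genotype on HFD and 7 for the interaction. That choice used the wild-type chow fat level, itself an arm of 3 of these comparisons, and removed Dgat2 and Agpat2, so these counts say nothing about hepatocyte transcripts. Leaving out 1 array gave 16 to 19 by diet in wild-type eWAT, 7 to 10 in Fgf1 null eWAT, 9 to 10 by genotype on chow, 13 to 14 on HFD and 12 to 16 for the interaction; in liver 13 to 16, 11 to 12, 2 to 2, 4 to 5 and 5 to 8. Between tissues it gave 18 to 18 and 17 to 19 in wild-type on chow and HFD, and 15 to 17 and 16 to 18 in Fgf1 null. Median scaling shifted the median of all features in wild-type by diet to 0.30 in eWAT and 0.26 in liver, with 18 members higher and 2 lower in eWAT and 18 and 0 in liver, and gave 3 higher and 5 lower rather than 5 and 4 by diet in Fgf1 null eWAT. Without background correction the features called over the whole array fell to 2305 from 3969 by diet in wild-type eWAT, to 695 from 1346 by genotype on HFD in eWAT, and to 227 from 509 by diet in wild-type liver. Dim members lost calls there, among them Pklr, Lpin2, Scd2, Elovl2 and Gpam, and Fasn by diet in wild-type liver (0.68). The replicate block changed 1 of 410 values past its threshold, the liver interaction of Gpam. Leaving out an RNA sample ends its comparison, so no result has a check between mice.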
